A study of Mus musculus with 12 samples.

Results

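The 8 genes described here encode the cyclin-dependent kinase inhibitors named Cdkn in the mouse: Cdkn1a, Cdkn1b and Cdkn1c of the Cip/Kip family, Cdkn2a, Cdkn2b, Cdkn2c and Cdkn2d of the Ink4 family, and Cdkn3. They were chosen by symbol and not by a rule on their values, though with earlier results of these data known. The table held 35709 Ensembl genes, and all 8 were among the 20244 genes that passed the filter on low values. The libraries came from primary hepatocytes isolated by Liberase perfusion, differential centrifugation and a Percoll gradient from male C57BL/6J mice aged 8 to 10 weeks. Mice received carbon tetrachloride (CCl4), a toxicant that kills hepatocytes around the central veins, by intraperitoneal injection of 0.4 mg per g of body weight with olive oil as the vehicle, or the oil alone, and hepatocytes were taken after 48 h. The 4 groups held 3 libraries each: Alb-R3 after CCl4, Alb-R3 after oil, Alb-Cre after CCl4 and Alb-Cre after oil. Alb-R3 mice are labelled as lacking the receptor gene Fgfr3 in hepatocytes, and Alb-Cre mice, the controls, carry the Cre recombinase driven by the albumin promoter. That promoter acts in hepatocytes, and whether every other type of liver cell keeps Fgfr3 was not tested. The labels do not say that each library came from a separate animal, so p-values measure the spread between these libraries, which may be partly technical.

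Progress through the cell cycle is driven by cyclin-dependent kinases bound to cyclins. Ink4 proteins bind CDK4 and CDK6 and keep them from D-type cyclins, whereas Cip/Kip proteins bind assembled cyclin-kinase complexes, above all those of CDK2. In the liver, hepatocytes are quiescent until injury or loss of tissue sends them into the cycle, and p21 (the product of Cdkn1a) and p27 (Cdkn1b) are known there as brakes on that entry. Much of the control of these proteins, of p27 above all, is through degradation after ubiquitination, which RNA levels do not show.

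Some facts of the libraries touch the results. Normalized counts summed to 27200000 to 38800000 per library, from an estimated 28000000 to 39600000 reads. Alb-R3 CCl4 replicate 1 stood apart: 32.3% of its normalized count was mitochondrial, the highest of the 12 libraries, the lowest being 6.22%, and albumin took 3.19%, the lowest, against 8.58% in the highest. Its summed counts of markers of Kupffer cells and macrophages (18776), monocytes and neutrophils (2185) and cholangiocytes (6769) were also above those of every other library. Counts of calls in Alb-R3, and the changes of the inhibitor genes there, are given with and without it. Fgfr3 had normalized counts of 477.7, 372.1 and 382.3 in Alb-R3 CCl4, against 950.9, 705.7 and 753 in Alb-Cre CCl4. It had 523.1, 650.5 and 1109 in Alb-R3 oil, against 734.9, 887.6 and 988.1 in Alb-Cre oil. The library labelled Alb-R3 oil replicate 3 thus had the highest Fgfr3 of the 12, and since the labels do not name the exons that were removed, a value per gene is a limited check of the label.

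After CCl4, Cdkn1a, Cdkn2c, Cdkn2d and Cdkn3 were higher than after oil in Alb-R3 hepatocytes, that is 4 of the 8 genes, where 10.9% of all tested genes were called higher. In Alb-Cre hepatocytes, Cdkn1a and Cdkn3 were called higher, 2 of the 8, where 3.46% of all tested genes were. A call means an adjusted p below 0.05 in limma, with Benjamini-Hochberg adjustment over the 20244 genes. None of the 8 genes was called lower. The median log2 fold change of the 8 was 1.47 in Alb-R3, beside 0.0016 over all tested genes, and 1.08 in Alb-Cre, beside 0.017. Leaving out Cdkn2a, which rests on 0 to 4 estimated reads per library, the median of the other 7 was 1.47 in Alb-R3 and 1.17 in Alb-Cre. Of these 7, all 3 CCl4 libraries lay above all 3 oil libraries for 6 in Alb-R3, where this held for 18.1% of tested genes, and for 4 in Alb-Cre, where it held for 13.3%. Without Alb-R3 CCl4 replicate 1, 4 of the 8 were again called in Alb-R3, where 9.84% of tested genes were called higher, and the remaining CCl4 libraries lay above the oil libraries for 7 of 7 genes, where this held for 25.4% of tested genes. With the genotypes averaged, the 4 genes called were again Cdkn1a, Cdkn2c, Cdkn2d and Cdkn3, where 12.8% of tested genes were called higher. In isolated cells profiled in bulk, fewer cells that express a gene and less of its RNA per cell cannot be told apart.

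**Figure D1:**
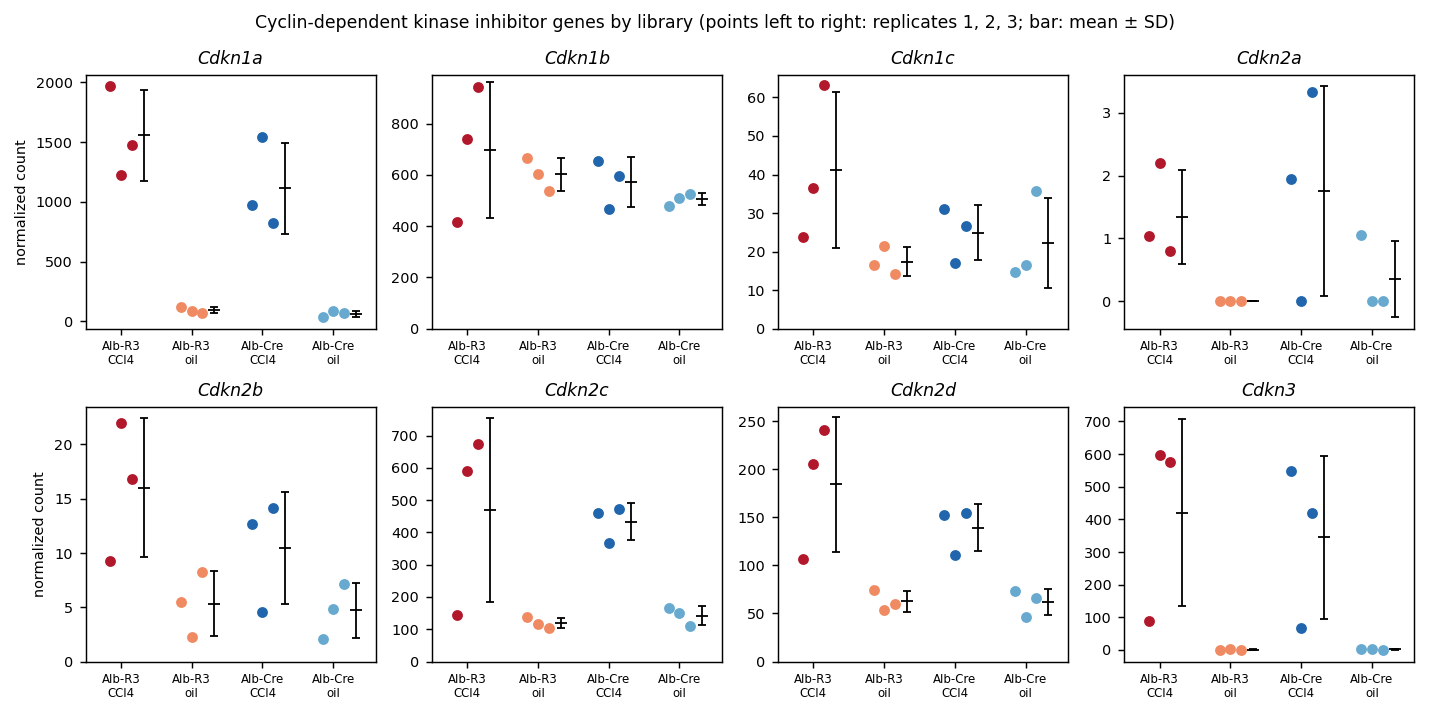
Normalized counts (vertical axes, linear, 1 panel per gene) of the 8 inhibitor genes in each of the 12 libraries; points are replicates 1 to 3 from left to right, and the black bar beside them is the mean ± SD of the group (n = 3). Cdkn1a and Cdkn3 stand far above oil in all 6 CCl4 libraries, while the groups of Cdkn1b overlap between CCl4 and oil in both genotypes.

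Cdkn1a encodes p21, the Cip/Kip inhibitor best known as a target of the tumour suppressor p53. The gene (ENSMUSG00000023067) lies on the plus strand at chr17:29090976-29100727 of GRCm38. Its normalized counts were 1969, 1223 and 1479 in Alb-R3 CCl4, against 117.1, 89.53 and 69.78 in Alb-R3 oil. They were 970.8, 1543 and 822.9 in Alb-Cre CCl4, against 34.65, 84.6 and 66.88 in Alb-Cre oil. Every CCl4 library was thus several times above every oil library of either genotype. The log2 fold change was 4.07 ± 0.33 (SE) in Alb-R3 (limma, adjusted p = 7.46e-06) and 4.18 ± 0.33 in Alb-Cre (limma, adjusted p = 1.22e-05). Without Alb-R3 CCl4 replicate 1, which had the highest value of all 12 libraries, the change in Alb-R3 was 3.88. A gene model on the opposite strand, AC167363.2, overlaps Cdkn1a; it was listed at 0 in 11 libraries and at 2.289 in Alb-Cre CCl4 replicate 2.

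The upstream sequence of Cdkn1a is shown because it holds a known feature of this gene, a pair of p53 half-sites. In the RefSeq table (GRCm38.p6), the 250 bases before the first of its starts, chr17:29090729-29090978 on the plus strand, read as follows, with the pair in capitals.
Cdkn1a: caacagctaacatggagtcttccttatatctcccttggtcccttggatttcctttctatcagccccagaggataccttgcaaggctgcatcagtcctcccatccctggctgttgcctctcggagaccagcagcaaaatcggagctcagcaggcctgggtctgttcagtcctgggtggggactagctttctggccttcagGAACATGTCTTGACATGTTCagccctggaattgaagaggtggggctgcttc
The pair lies 51 to 32 bases before that start, at chr17:29090928-29090947, with 0 bases between the half-sites and 1 mismatch over both, and 2822 bases before the second RefSeq start of the gene. Another half-site begins 73 bases before the first start, 12 bases from the first half-site of the pair, and neither of these 2 has a mismatch. A p53 half-site without mismatch stood in 7.13% of the 32851 promoter windows of the table, and a pair with at most 1 mismatch and 0 to 13 bases between the half-sites stood in 0.898%. A match describes the letters only, and binding was not measured.

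Genes that belong to the p53 axis were read beside Cdkn1a. Of 20 tested, 6 were called higher and 0 lower after CCl4 in Alb-R3, with a median log2 fold change of 0.44, and 3 were called higher in Alb-Cre, with a median of 0.10. Of all tested genes, 10.9% were called higher in Alb-R3 and 3.46% in Alb-Cre. Phlda3, an inhibitor of the kinase Akt, rose by 4.58 ± 0.52 on the log2 scale in Alb-R3 (limma, adjusted p = 7.07e-05) and by 3.23 ± 0.52 in Alb-Cre (limma, adjusted p = 0.00196). Gtse1, which is itself expressed in G2 and S phase, rose by 4.24 ± 0.66 in Alb-R3 and by 4.41 ± 0.66 in Alb-Cre. Tnfrsf10b, a death receptor, was also called in both genotypes, at 2.46 and 2.52. Mdm2, the ligase that degrades p53, was called in Alb-R3 at 0.63 ± 0.18 (limma, adjusted p = 0.0279) and had 0.03 ± 0.18 in Alb-Cre (limma, adjusted p = 0.963). Trp53, which encodes p53, had log2 fold changes of 0.17 and 0.53 and passed in neither genotype (limma, adjusted p = 0.522 and 0.0919). Gdf15, Sesn2, Plk3, Gadd45a and Ccng1 were not called either, so the calls covered a minority of the list in each genotype. Leaving out Alb-R3 CCl4 replicate 1, 6 members were called in Alb-R3 and 6 in Alb-Cre. In that setting 16.1% of all tested genes were called in Alb-R3 and 7.22% in Alb-Cre, beside 17.8% and 4.45% in the main fit. In Alb-R3 Gtse1 was then at 4.95, and Mdm2 was no longer called, at 0.50 (limma, adjusted p = 0.0796). Ccng1 was called there, at 0.66 (limma, adjusted p = 0.0309), as were Zmat3 at 1.29 and Aen at 0.72.

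Cdkn1b encodes p27, the Cip/Kip inhibitor that accumulates in quiescent cells. The gene (ENSMUSG00000003031) lies on the plus strand at chr6:134920401-134925513. Normalized counts of Cdkn1b were 414.7, 739.1 and 941.7 in Alb-R3 CCl4, against 666.4, 602.9 and 536.9 in Alb-R3 oil. They were 653.4, 465.5 and 597.6 in Alb-Cre CCl4, against 480.8, 508.5 and 526.3 in Alb-Cre oil. CCl4 and oil libraries overlapped in both genotypes, and the CCl4 libraries of Alb-R3 had the widest spread. Between CCl4 and oil the log2 fold change was 0.14 ± 0.25 in Alb-R3 (limma, adjusted p = 0.751), with a 95% interval of -0.40 to 0.68, and 0.17 ± 0.25 in Alb-Cre (limma, adjusted p = 0.813), with an interval of -0.37 to 0.70. Without Alb-R3 CCl4 replicate 1, the change in Alb-R3 was 0.48 (limma, adjusted p = 0.0954).

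Cdkn1b had the smallest log2 fold change of the 8 genes in each genotype, and its upstream sequence is shown to be read beside that of Cdkn3, further on. Capitals mark 2 CCAAT boxes and the motif TTTAAA, a form of the cell cycle homology region (CHR), in chr6:134920151-134920400 on the plus strand (RefSeq, GRCm38.p6).
Cdkn1b: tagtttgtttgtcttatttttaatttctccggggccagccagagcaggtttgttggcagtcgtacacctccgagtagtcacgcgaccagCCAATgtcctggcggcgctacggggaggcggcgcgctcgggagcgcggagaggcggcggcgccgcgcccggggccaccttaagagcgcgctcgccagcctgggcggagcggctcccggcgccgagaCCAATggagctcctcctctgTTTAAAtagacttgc
The CCAAT boxes begin 161 and 35 bases before the start and TTTAAA begins 15 bases before it. CCAAT stood in 33.8% of all windows on either strand and TTTAAA in 12.1%.

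Ubiquitin ligases that act on p27 and p21 were read beside Cdkn1b. Of the 13 genes listed for the ligases that degrade the inhibitors, 4 were called higher in each genotype: Skp2, Cks1b, Dtl and Cdc20. Skp2, the subunit that recognises p27, rose by 1.93 ± 0.32 on the log2 scale in Alb-R3 (limma, adjusted p = 0.00129) and by 1.92 ± 0.32 in Alb-Cre (limma, adjusted p = 0.00273). Its partner Cks1b rose by 1.99 ± 0.24 in Alb-R3 and by 1.41 ± 0.24 in Alb-Cre. Dtl, the adaptor that leads p21 to degradation in S phase, had mean normalized counts of 199 in Alb-R3 CCl4, against 9.38 in Alb-R3 oil, and of 255 in Alb-Cre CCl4, against 10.4 in Alb-Cre oil. Cdc20, which activates the anaphase-promoting complex, rose by 7.61 ± 0.78 in Alb-R3 and by 7.71 ± 0.78 in Alb-Cre. Rnf123, a ligase that acts on p27 in the cytoplasm, was called lower in Alb-R3, at -0.93 ± 0.18 (limma, adjusted p = 0.00362), and had -0.24 ± 0.18 in Alb-Cre. Across all tested genes, 10.9% were called higher and 6.92% lower in Alb-R3, and 3.46% higher and 0.988% lower in Alb-Cre. The list median was 0.020 in Alb-R3 and -0.030 in Alb-Cre, and the cullins Cul1, Cul4a and Cul4b, Rbx1, Skp1a and Ddb1 were not called. Leaving out Alb-R3 CCl4 replicate 1, again 4 were called higher and 1 lower in Alb-R3, with Cdc20 at 8.58.

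Cdkn1c encodes p57, the third Cip/Kip inhibitor, from an imprinted gene expressed mainly from the maternal allele. The gene (ENSMUSG00000037664) lies on the minus strand at chr7:143458339-143461050. Cdkn1c had normalized counts of 23.73, 36.62 and 63.31 in Alb-R3 CCl4, against 16.41, 21.53 and 14.19 in Alb-R3 oil. They were 31.11, 17.16 and 26.6 in Alb-Cre CCl4, against 14.7, 16.53 and 35.8 in Alb-Cre oil. The Alb-R3 CCl4 libraries all lay above the Alb-R3 oil libraries, whereas the groups overlapped in Alb-Cre, where the highest value was an oil library. Estimated reads of Cdkn1c were only 12 to 79 per library. CCl4 against oil gave a log2 fold change of 1.11 ± 0.46 in Alb-R3 (limma, adjusted p = 0.121) and 0.22 ± 0.46 in Alb-Cre (limma, adjusted p = 0.867). Leaving out Alb-R3 CCl4 replicate 1 gave 1.44 in Alb-R3 (limma, adjusted p = 0.0545). With library weights the change in Alb-R3 passed (limma, adjusted p = 0.0238), as it did with totals that leave out mitochondrial genes. Of all genes tested in those 2 settings, 14.6% and 23% were called higher in Alb-R3, beside 10.9% in the main fit. The 95% interval of the difference between the changes in Alb-R3 and Alb-Cre ran from -0.53 to 2.30. An annotated antisense gene, Gm44732, overlaps Cdkn1c and was listed at 0 in all 12 libraries, but the labels and headers do not say whether counting used strand.

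Imprinted genes were read beside Cdkn1c. Of 16 tested, Cdkn1c included, 6 were called higher and 1 lower in Alb-R3, and 0 were called in Alb-Cre. For all tested genes the shares were 10.9% higher and 6.92% lower in Alb-R3, and only 3.46% and 0.988% in Alb-Cre. Phlda2, which lies 40495 bases from Cdkn1c on chromosome 7, rose by 3.46 ± 0.74 on the log2 scale in Alb-R3 (limma, adjusted p = 0.00648), with mean normalized counts of 23.5 after CCl4 and 1.55 after oil, and had 2.15 ± 0.74 in Alb-Cre (limma, adjusted p = 0.141). Slc22a18, 12686 bases away, was called lower in Alb-R3 at -0.87 ± 0.21 (limma, adjusted p = 0.0126) and had -0.40 ± 0.21 in Alb-Cre. Kcnq1, 31297 bases away, was called higher in Alb-R3 at 1.90 ± 0.52 (limma, adjusted p = 0.024), from mean counts of 15.3 after CCl4 and 3.81 after oil. The imprinted neighbours of Cdkn1c thus did not share 1 direction. Sgce, whose product belongs to the sarcoglycans, rose by 2.72 ± 0.66 in Alb-R3 (limma, adjusted p = 0.0127). None of these genes had a called interaction. In Alb-R3, 6 were called higher and 1 lower also when Alb-R3 CCl4 replicate 1 was left out.

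Cdkn2a encodes p16Ink4a and, from another first exon and reading frame, p19Arf, which holds back Mdm2. A value per gene does not separate those transcripts. The gene (ENSMUSG00000044303) lies on the minus strand at chr4:89274471-89294653, 11645 bases from Cdkn2b. Its normalized counts were 1.032, 2.197 and 0.8014 in Alb-R3 CCl4, and the gene was listed at 0 in each Alb-R3 oil library. They were 1.945, 0 and 3.325 in Alb-Cre CCl4, against 1.05, 0 and 0 in Alb-Cre oil. The highest of these values came from about 4 estimated reads, so the locus was barely detected in any library and no fold change is given. It was called in no comparison.

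Cdkn2b encodes p15, an Ink4 inhibitor known to be induced by TGF-beta. The gene (ENSMUSG00000073802) lies on the minus strand at chr4:89306299-89311039. For Cdkn2b, normalized counts were 9.285, 21.97 and 16.83 in Alb-R3 CCl4, against 5.471, 2.267 and 8.278 in Alb-R3 oil. They were 12.64, 4.575 and 14.13 in Alb-Cre CCl4, against 2.1, 4.861 and 7.16 in Alb-Cre oil. The CCl4 libraries lay above the oil libraries in Alb-R3 and overlapped them in Alb-Cre, with only 2 to 30 estimated reads per library. Cdkn2b had a log2 fold change of 1.47 ± 0.60 in Alb-R3 (limma, adjusted p = 0.112) and 0.99 ± 0.60 in Alb-Cre (limma, adjusted p = 0.457). It was 1.80 in Alb-R3 without Alb-R3 CCl4 replicate 1 (limma, adjusted p = 0.0754). With the genotypes averaged it was 1.23 (limma, adjusted p = 0.0548), so Cdkn2b missed the threshold in each of these comparisons. It passed in Alb-R3 with library weights (limma, adjusted p = 0.0227) and with totals that leave out mitochondrial genes. In those settings 14.6% and 23% of all tested genes were called higher in Alb-R3, beside 10.9% in the main fit.

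Among 18 transcription regulators of the inhibitor genes, 5 were called higher and 2 lower in Alb-R3, and 1 in each direction in Alb-Cre. The shares of all tested genes were 10.9% higher and 6.92% lower in Alb-R3, and 3.46% and 0.988% in Alb-Cre. Tgfb1, the ligand known to induce Cdkn2b, rose by 1.79 ± 0.34 on the log2 scale in Alb-R3 (limma, adjusted p = 0.0034) and had 0.67 ± 0.34 in Alb-Cre (limma, adjusted p = 0.353). Ets1, a known activator of the p16Ink4a promoter, rose by 1.65 ± 0.19 in Alb-R3 and by 0.86 ± 0.19 in Alb-Cre. Cebpa, a hepatocyte factor that restrains proliferation, fell in both genotypes, at -1.30 ± 0.30 in Alb-R3 and -1.15 ± 0.30 in Alb-Cre. Foxo4, of the FoxO family that activates Cdkn1b, was called lower in Alb-R3, at -0.75 ± 0.22, and had -0.74 ± 0.22 in Alb-Cre (limma, adjusted p = 0.0313 in Alb-R3 and 0.0787 in Alb-Cre). When Alb-R3 CCl4 replicate 1 was left out, 4 members of the list were called in Alb-Cre, and 5 higher and 1 lower in Alb-R3, where Foxo4 was no longer called, at -0.63 (limma, adjusted p = 0.0802). That setting called 7.22% of all tested genes in Alb-Cre, beside 4.45% in the main fit.

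Of 15 Polycomb genes and partners that act at the Ink4 locus, 1 was called higher and 3 lower in Alb-R3, and 1 in each direction in Alb-Cre. Among all tested genes, 10.9% were called higher and 6.92% lower in Alb-R3, and 3.46% and 0.988% in Alb-Cre. The count called higher in Alb-R3 was thus below the share of all genes. Ezh2, the methyltransferase of the complex, rose by 1.71 ± 0.26 in Alb-R3 (limma, adjusted p = 0.000704) and by 1.66 ± 0.26 in Alb-Cre (limma, adjusted p = 0.0016). Cbx7, a reader of that mark, had mean normalized counts of 101 in Alb-R3 CCl4, against 297 in Alb-R3 oil, and of 151 in Alb-Cre CCl4, against 328 in Alb-Cre oil, a fall called in both genotypes. Ring1 and Kdm6b, the demethylase on this list, were called lower in Alb-R3. Bmi1 had log2 fold changes of 0.14 and 0.13 and was called in neither. With Alb-R3 CCl4 replicate 1 left out, 2 were called higher and 3 lower in Alb-R3.

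Cdkn2c encodes p18, an Ink4 inhibitor of CDK4 and CDK6 whose RNA is known to be controlled by E2F factors. The gene (ENSMUSG00000028551) lies on the minus strand at chr4:109660876-109667189. Its normalized counts were 145.5, 591.1 and 674.8 in Alb-R3 CCl4, against 137.9, 115.6 and 105.3 in Alb-R3 oil. They were 459.9, 367.2 and 473.8 in Alb-Cre CCl4, against 165.9, 149.7 and 108.6 in Alb-Cre oil. Alb-R3 CCl4 replicate 1 lay just above the oil libraries, while the other 5 CCl4 libraries stood well clear of them. The log2 fold change was 1.70 ± 0.44 in Alb-R3 (limma, adjusted p = 0.0175) and 1.62 ± 0.44 in Alb-Cre (limma, adjusted p = 0.0549). Without Alb-R3 CCl4 replicate 1, it was 2.40 in Alb-R3 (limma, adjusted p = 1.03e-05), and the change in Alb-Cre passed as well (limma, adjusted p = 0.000159). Cdkn2c missed the threshold in Alb-R3 when Alb-R3 CCl4 replicate 2 was left out (limma, adjusted p = 0.0636), and likewise for Alb-R3 CCl4 replicate 3 (0.067), Alb-R3 oil replicate 2 (0.0539) or Alb-R3 oil replicate 3 (0.056). It also missed there under quantile normalization (limma, adjusted p = 0.0588) and in a fit of only the groups compared (limma, adjusted p = 0.0993).

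Cdkn2d encodes p19Ink4d, the Ink4 inhibitor that in cycling cells is known to peak in S phase. The gene (ENSMUSG00000096472) lies on the minus strand at chr9:21288410-21291407. Normalized counts of Cdkn2d were 106.3, 205.1 and 241.2 in Alb-R3 CCl4, against 74.41, 53.27 and 60.31 in Alb-R3 oil. They were 152.6, 110.9 and 154.6 in Alb-Cre CCl4, against 73.49, 46.67 and 65.63 in Alb-Cre oil. The CCl4 libraries lay above the oil libraries in both genotypes with no overlap. The log2 fold change was 1.47 ± 0.32 in Alb-R3 (limma, adjusted p = 0.00688) and 1.17 ± 0.32 in Alb-Cre (limma, adjusted p = 0.0582). Both passed without Alb-R3 CCl4 replicate 1, at 1.82 in Alb-R3 (limma, adjusted p = 0.000693) and 1.17 in Alb-Cre (limma, adjusted p = 0.0115). Under quantile normalization the change in Alb-R3 missed the threshold, at 1.06 (limma, adjusted p = 0.0509).

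Cdkn3 encodes a phosphatase, known as KAP, that removes the activating phosphate from CDK2 when the cyclin has gone, and differs from the other members in that it does not inhibit by binding alone. The gene (ENSMUSG00000037628) lies on the plus strand at chr14:46760541-46771669. Its normalized counts were 89.75, 595.5 and 577 in Alb-R3 CCl4, against 0, 2.267 and 1.183 in Alb-R3 oil. They were 549.3, 67.48 and 419.7 in Alb-Cre CCl4, against 2.1, 1.944 and 1.193 in Alb-Cre oil. RNA of Cdkn3 was close to 0 in every oil library, at no more than 2 estimated reads, and in each genotype 1 CCl4 library lay several times below the other 2. The log2 fold change was 7.35 ± 0.83 in Alb-R3 (limma, adjusted p = 7.41e-05) and 6.53 ± 0.83 in Alb-Cre (limma, adjusted p = 0.000303). In Alb-R3 it was 8.25 without Alb-R3 CCl4 replicate 1 (limma, adjusted p = 9.16e-06), and in Alb-Cre it was 7.47 without Alb-Cre CCl4 replicate 2, the low library there (limma, adjusted p = 0.000151), and 5.97 without Alb-Cre CCl4 replicate 1 (limma, adjusted p = 0.00279). Because the oil values are so low, these sizes depend on the pseudocount of 1: in Alb-R3 the change was 8.87 with 0.1 and 5.72 with 5, and in Alb-Cre it was 7.12 with 0.1 and 5.26 with 5, called each time.

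The upstream sequence of Cdkn3 is shown because it holds motifs known from genes that peak in G2 and mitosis, a CHR and several CCAAT boxes. Whether their order and spacing are those of such genes was not tested. In chr14:46760291-46760540 on the plus strand (RefSeq, GRCm38.p6), capitals mark the CCAAT boxes, one of them on the minus strand and so read as ATTGG, and the CHR motif TTTGAA, also on the minus strand and so read as TTCAAA.
Cdkn3: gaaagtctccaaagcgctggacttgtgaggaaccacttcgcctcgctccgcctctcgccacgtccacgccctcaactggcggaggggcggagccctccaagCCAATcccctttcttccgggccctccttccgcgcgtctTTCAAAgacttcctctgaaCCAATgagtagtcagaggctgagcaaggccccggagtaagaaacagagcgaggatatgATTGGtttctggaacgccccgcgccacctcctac
The CCAAT boxes begin 149, 92 and 34 bases before the start and the CHR spans 111 to 106 bases before it. The boxes at 92 and 34 thus lie between the CHR and the start. TTTGAA stood in 16% of the 32851 windows on either strand, at least 3 CCAAT boxes stood in 2.79%, and both together stood in 0.381%. Of 11 mitosis genes with a window, 4 held TTTGAA, namely Kif11, Mki67, Prc1 and Top2a, and 2 of these, Mki67 and Top2a, also held at least 3 CCAAT boxes. A GC box begins 166 bases before the start.

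**Figure D2:**
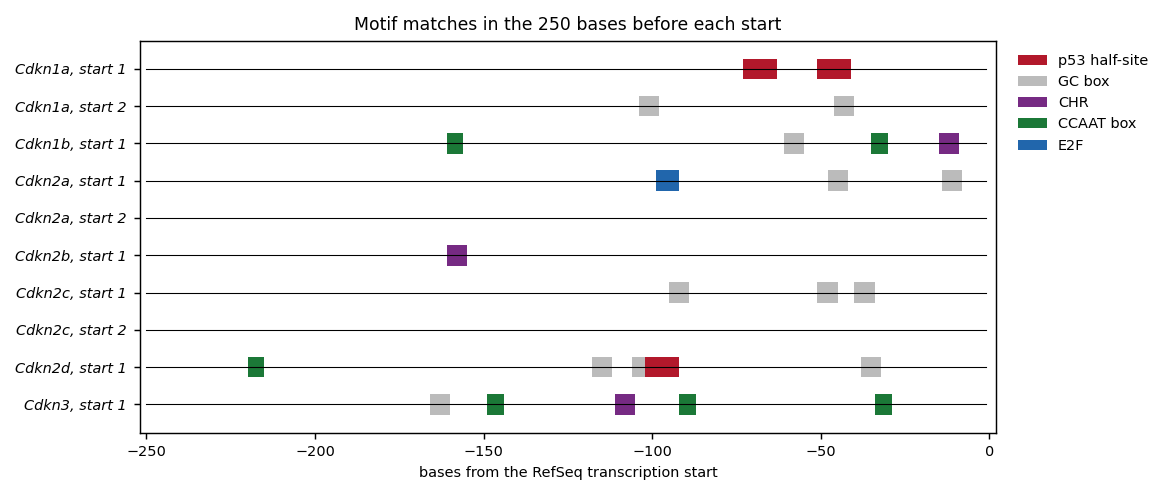
Matches to the searched motifs in the 250 bases before each RefSeq start of 7 inhibitor genes (10 starts, 1 per line; horizontal axis, bases from the start; coloured blocks, matches on either strand). The p53 half-sites of the first Cdkn1a start and the CHR with 3 CCAAT boxes of Cdkn3 are the features described in the text; only half-sites without mismatch are drawn.

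The other windows held the following matches. The first Cdkn2a start had an E2F match (TTTCCCG, in 2.75% of all windows) and 2 GC boxes (GGGCGG, in 32.7%). Neither that motif nor the other E2F form searched, TTTGGCG (1.26% of windows), was found in the 2 windows of Cdkn2c, which says only that these letters are not there. Cdkn2b held TTTGAA on the minus strand, and Cdkn2d held 3 GC boxes, a CCAAT box and a p53 half-site without mismatch that overlaps one of the GC boxes. Cdkn1c had no entry in the table used.

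**Figure D3:**
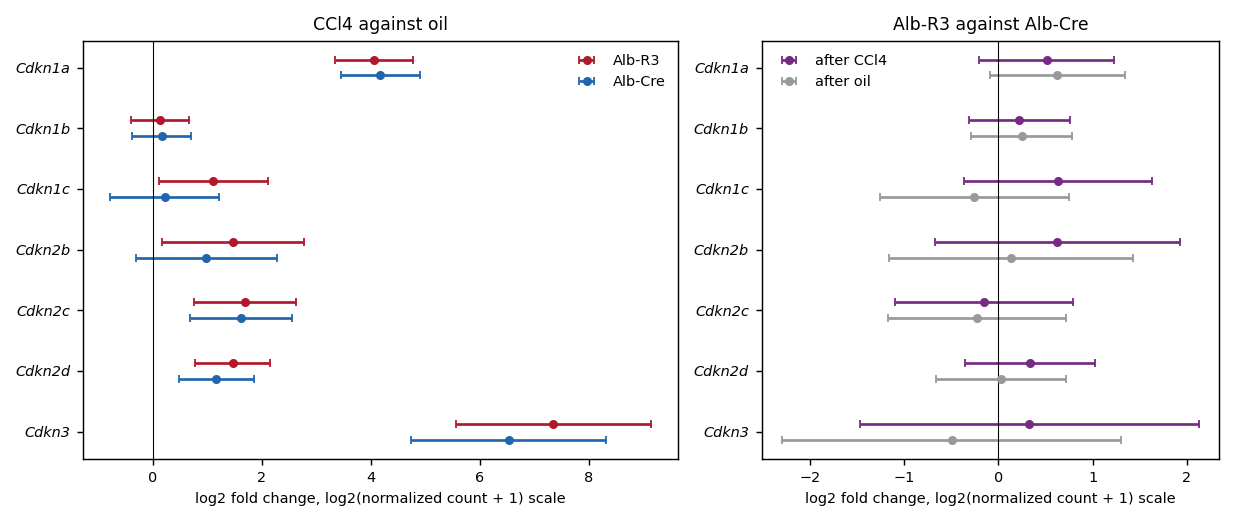
Log2 fold changes (horizontal axes, log2(normalized count + 1) scale) of 7 inhibitor genes with limma's 95% confidence intervals, for CCl4 against oil in each genotype (left) and for the genotypes within each treatment, Alb-R3 over Alb-Cre (right); Cdkn2a is left out because no Alb-R3 oil library had a value above 0. Cdkn1a and Cdkn3 lie far to the right of 0 in both genotypes on the left, and every interval on the right holds 0.

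Whether the genotypes differed was asked directly, from the same 12 libraries, so these comparisons share samples with those above. After CCl4, none of the 8 genes was called between Alb-R3 and Alb-Cre (0 of 8, where 0.173% of tested genes were called; limma). The log2 fold changes ran from -0.15 (Cdkn2c) to 0.63 (Cdkn1c), with a smallest adjusted p of 0.765, and 1573 genes had an unadjusted p below 0.05, none of them among the 8. After oil, 0 of 8 were called, where 0.207% of tested genes were, and the changes ran from -0.50 (Cdkn3) to 0.62 (Cdkn1a), with a smallest adjusted p of 0.868 (limma); 1314 genes had an unadjusted p below 0.05, again none of the 8. With library weights, Cdkn1a was called after oil, at 1.20 (limma, adjusted p = 0.0331), where 3.28% of tested genes were called. Only Cdkn1b had Alb-R3 oil libraries wholly above the Alb-Cre oil libraries, at 0.25 ± 0.25, where this held for 5.66% of tested genes.

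An interaction of genotype and CCl4, that is, a response that differs between Alb-R3 and Alb-Cre, was called for 0 of the 8 genes, where 0% of tested genes were called (0 of 20244; limma), while 1516 genes had an unadjusted p below 0.05. For Cdkn1a this difference was -0.11 on the log2 scale, with a 95% interval of -1.13 to 0.90. For Cdkn2c it was 0.07, with an interval of -1.26 to 1.41, and for Cdkn2d 0.31, with an interval of -0.67 to 1.28. For Cdkn3 the interval was the widest, -1.72 to 3.36. These intervals leave room for differences of about the size of the whole CCl4 response of Cdkn2c or Cdkn2d, so the calls of Cdkn2c and Cdkn2d in Alb-R3 and not in Alb-Cre do not show a difference between the genotypes.

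Averaged over both treatments, Alb-R3 against Alb-Cre called 0 of the 8 genes, where 0.43% of tested genes were called (limma). Cdkn1a came nearest, at 0.57 ± 0.24 with an unadjusted p of 0.0313 and an adjusted p of 0.698 (limma). Its mean normalized count was 1557 ± 379 in Alb-R3 CCl4, against 1112 ± 380 in Alb-Cre CCl4, and 92.1 ± 23.8 in Alb-R3 oil, against 62.0 ± 25.3 in Alb-Cre oil (SD, n = 3 each). The libraries of the genotypes overlapped under both treatments.

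Levels of different genes can be set side by side only per transcript length, for which the deposited FPKM values were used. The summed FPKM of the 8 genes ran from 51.4 to 94.0 in Alb-R3 CCl4, against 9.44 to 13.4 in Alb-R3 oil. It averaged 56.7 ± 6.03 in Alb-Cre CCl4, against 10.7 ± 0.348 in Alb-Cre oil (SD, n = 3 each). Cdkn1a made up 39.0% to 76.5% of that sum in Alb-R3 CCl4, against 13.5% to 17.5% in Alb-R3 oil. It made up 36.3% to 66.8% in Alb-Cre CCl4, against 6.72% to 15.8% in Alb-Cre oil. Cdkn1b had the largest share in all 6 oil libraries and Cdkn1a in all 6 CCl4 libraries. The share of Cdkn1b was 7.82% to 12.7% in Alb-R3 CCl4, against 48.4% to 51.2% in Alb-R3 oil, and 9.79% to 12.8% in Alb-Cre CCl4, against 45.3% to 47.0% in Alb-Cre oil. The FPKM of Cdkn1b itself was 8.24 ± 3.98 in Alb-R3 CCl4, against 5.70 ± 0.88 in Alb-R3 oil, and 6.62 ± 1.43 in Alb-Cre CCl4, against 4.95 ± 0.24 in Alb-Cre oil (SD, n = 3 each). Cdkn3 took 4.45% to 24.2% in Alb-R3 CCl4, against 0% to 0.505% in Alb-R3 oil, and 3.73% to 27.0% in Alb-Cre CCl4, against 0.280% to 0.519% in Alb-Cre oil. Shares sum to the whole, so the share of 1 gene falls when another rises.

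The order of mean FPKM in Alb-R3 oil was Cdkn1b, Cdkn2c, Cdkn1a, Cdkn2d, Cdkn1c, Cdkn2b, Cdkn3 and Cdkn2a. In Alb-Cre oil it was the same but for Cdkn2d, which stood above Cdkn1a. In Alb-R3 oil, Cdkn2c (1.84 ± 0.33), Cdkn1a (1.80 ± 0.54) and Cdkn2d (1.53 ± 0.30) did not differ beyond their spread, and in Alb-Cre oil neither did Cdkn2d (1.56 ± 0.33) and Cdkn1a (1.25 ± 0.52) (SD, n = 3 each). In Alb-R3 CCl4 the order was Cdkn1a (35.9 ± 5.22), Cdkn3 (13.4 ± 9.60), Cdkn2c (9.19 ± 6.10), Cdkn1b (8.24 ± 3.98) and Cdkn2d (5.60 ± 2.67), and the last 4 overlapped one another. Alb-R3 CCl4 replicate 1 was the lowest for each of these 4: Cdkn3 had 2.287, 18.59 and 19.21 FPKM in replicates 1 to 3, Cdkn2c 2.289, 11.4 and 13.87, and Cdkn1b 4.022, 8.781 and 11.93. Cdkn1b stood second to Cdkn1a in replicate 1, and the order of the means was that of the other 2 libraries. In Alb-Cre CCl4 the order of these 5 was the same, from Cdkn1a at 26.0 ± 7.27 to Cdkn2d at 4.16 ± 0.94.

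**Figure D4:**
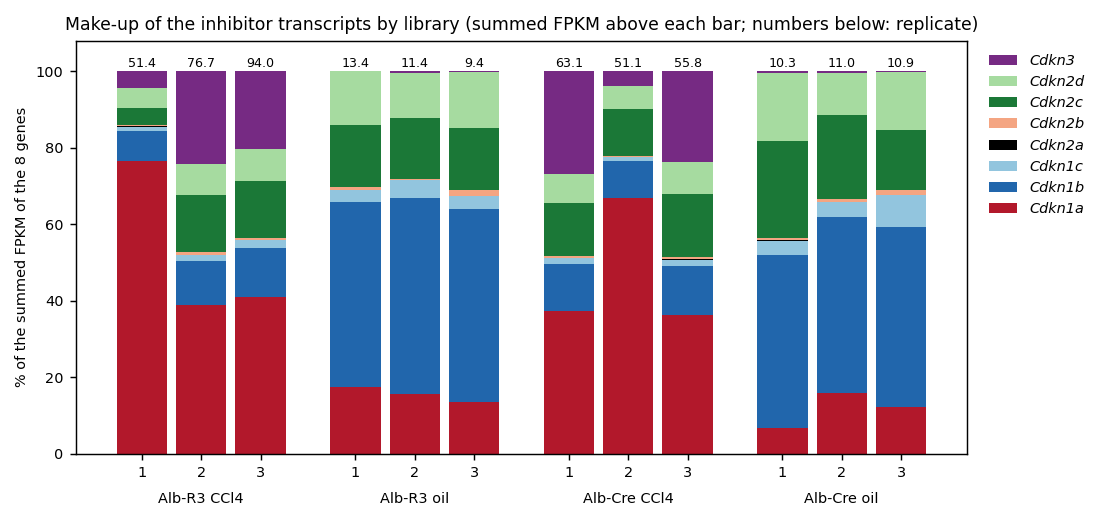
Share of each inhibitor gene in the summed FPKM of the 8 (vertical axis, %; 1 bar per library, replicates 1 to 3 in each group, summed FPKM above the bar). Cdkn1b fills 45.3% to 51.2% of the oil bars and Cdkn1a is the largest part of every CCl4 bar, with Cdkn3 small in 1 CCl4 library of each genotype.

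The CCl4 libraries differed among themselves, and for part of the values 1 library of each genotype stood at the same end of its group. Alb-R3 CCl4 replicate 1 and Alb-Cre CCl4 replicate 2 had the highest Cdkn1a of their groups and the lowest Cdkn1b, Cdkn1c, Cdkn2b, Cdkn2c, Cdkn2d and Cdkn3. The gaps differed in size: Cdkn2c was at 145.5, against 591.1 and 674.8, in Alb-R3 CCl4, and at 367.2, against 459.9 and 473.8, in Alb-Cre CCl4. Their mitochondrial shares were 32.3% and 6.25%, the highest and the lowest of their groups. Summed normalized counts of 12 mitosis genes, among them Mki67, Top2a and Plk1, were 3026, 10588 and 12886 in Alb-R3 CCl4 and 8108, 4332 and 8348 in Alb-Cre CCl4, so the same 2 libraries were lowest. Sums of 12 S phase genes, among them Mcm5, Pcna and Cdc6, were 5800, 10182 and 13945 in Alb-R3 CCl4 and 10196, 16273 and 12206 in Alb-Cre CCl4. Alb-R3 CCl4 replicate 1 was lowest for S phase as well, whereas Alb-Cre CCl4 replicate 2 was the highest of its group. Of the first library's departures in mitochondrial share and markers of other cells, the part in these values was not tested. This pattern was seen in 1 library of each genotype and was picked out after the values were known.

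**Figure D5:**
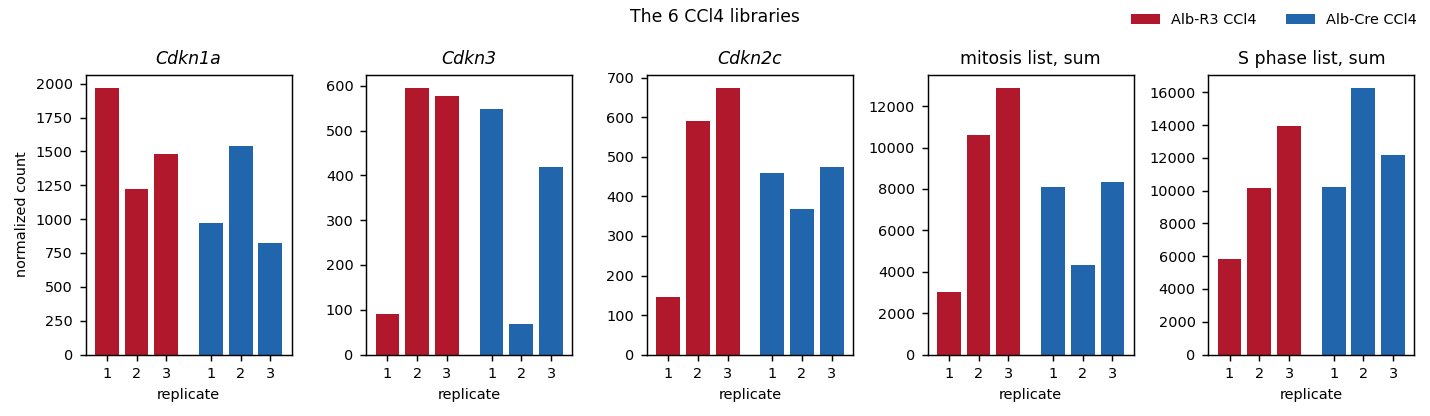
Normalized counts of Cdkn1a, Cdkn3 and Cdkn2c and summed normalized counts of the mitosis and S phase lists (vertical axes, linear from 0) in the 6 CCl4 libraries, with Alb-R3 in red and Alb-Cre in blue. Alb-R3 replicate 1 and Alb-Cre replicate 2 have the highest Cdkn1a of their groups (1969 and 1543) and the lowest Cdkn3 (89.75 and 67.48) and mitosis sums.

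The kinases and cyclins that the inhibitors act on were called higher in 8 of 12 cases in Alb-R3 and 7 of 12 in Alb-Cre, and none was called lower. The share of all tested genes called higher was 10.9% in Alb-R3 and 3.46% in Alb-Cre. Ccnb1, the cyclin of mitotic entry, rose by 8.28 ± 0.88 on the log2 scale in Alb-R3 (limma, adjusted p = 4.26e-05) and by 6.76 ± 0.88 in Alb-Cre (limma, adjusted p = 0.000352). Ccna2, the cyclin of S phase and G2, rose by 7.11 ± 0.62 in Alb-R3 and by 6.90 ± 0.62 in Alb-Cre. Cdk1 had mean normalized counts of 1311 in Alb-R3 CCl4, against 12.2 in Alb-R3 oil, and of 1049 in Alb-Cre CCl4, against 22.6 in Alb-Cre oil. Of the kinases bound by Ink4 proteins, Cdk4 had 0.38 ± 0.15 in Alb-R3 (limma, adjusted p = 0.1) and 0.37 ± 0.15 in Alb-Cre (limma, adjusted p = 0.212). Cdk6 had 0.13 ± 0.15 in Alb-R3 (limma, adjusted p = 0.596) and 0.41 ± 0.15 in Alb-Cre (limma, adjusted p = 0.157). With the genotypes averaged, 10 of the 12 were called higher, where 12.8% of tested genes were. Among the 10 were Cdk4 at 0.37 ± 0.10 (limma, adjusted p = 0.0216) and Cdk2 at 0.47 ± 0.12 (limma, adjusted p = 0.0146), whereas Cdk6 and Ccnd3 were not called. Leaving out Alb-R3 CCl4 replicate 1, 8 were called in Alb-R3, with Ccnb1 at 9.27 and Ccna2 at 7.75.

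Of 13 pocket protein and E2F genes, which act after the kinases, 7 were called higher and 0 lower in each genotype, where 10.9% (Alb-R3) and 3.46% (Alb-Cre) of tested genes were called higher. Rbl1, the pocket protein p107, rose by 3.23 ± 0.31 in Alb-R3 (limma, adjusted p = 2.45e-05) and by 3.18 ± 0.31 in Alb-Cre (limma, adjusted p = 4.44e-05). E2f1 rose by 2.51 ± 0.22 and E2f2 by 2.78 ± 0.52 in Alb-R3, and E2f1 by 2.62 ± 0.22 and E2f2 by 1.99 ± 0.52 in Alb-Cre. Rb1 and Rbl2 were not called. All 12 S phase genes were called in Alb-R3 and 11 in Alb-Cre, with Cdc6, a licensing factor, at 6.27 ± 0.59 in Alb-R3 and 7.23 ± 0.59 in Alb-Cre, and Mcm5, of the replicative helicase, at 4.68 ± 0.30 and 5.06 ± 0.30. All 12 mitosis genes were called in both genotypes, with medians of 6.81 in Alb-R3 and 6.66 in Alb-Cre. Mki67, the proliferation marker, had mean normalized counts of 1928 in Alb-R3 CCl4, against 8.35 in Alb-R3 oil, and of 1762 in Alb-Cre CCl4, against 9.36 in Alb-Cre oil. Leaving out Alb-R3 CCl4 replicate 1, 7 pocket protein and E2F genes and all 12 genes of both the S phase and mitosis lists were called in Alb-R3.

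Genes often measured beside p16 and p21 as marks of senescence were mixed. Of 13 tested, 7 were called higher and 1 lower in Alb-R3, and 2 higher and 1 lower in Alb-Cre. For all tested genes the shares were 10.9% higher and 6.92% lower in Alb-R3, and 3.46% and 0.988% in Alb-Cre. Leaving out Alb-R3 CCl4 replicate 1, 8 were called higher and 0 lower in Alb-R3, and 5 were called in Alb-Cre. Of all tested genes, 9.84% were then called higher in Alb-R3, beside 10.9% in the main fit. In Alb-Cre, 7.22% were then called in either direction, beside 4.45%. Timp1, a metalloproteinase inhibitor, had normalized counts of 10.99 to 86.66 in Alb-R3 CCl4 and 2.49 to 14.9 in Alb-Cre CCl4 and was listed at 0 in all 6 oil libraries. Ccl2, a chemokine, rose by 4.56 ± 0.83 on the log2 scale in Alb-R3 (limma, adjusted p = 0.00241) and had 2.53 ± 0.83 in Alb-Cre (limma, adjusted p = 0.118). Its normalized counts in Alb-R3 CCl4 ran from 28.05 to 438.5, and without replicate 1 the change was 3.34 (limma, adjusted p = 0.00123) and the mean of Timp1 was 18.7. Lmnb1, a lamin known to be lost in senescent cells, rose by 1.93 ± 0.34 in Alb-R3 and by 2.04 ± 0.34 in Alb-Cre, and Igfbp5 fell by 1.68 in Alb-R3 and by 2.32 in Alb-Cre. Igfbp5 missed the threshold in Alb-R3 when that library was left out, at -1.36 (limma, adjusted p = 0.0763).

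Markers of cells other than hepatocytes moved with CCl4 in Alb-R3 beside these lists. Of 16 Kupffer cell and macrophage markers, 15 were called higher and 1 lower, of 16 endothelial markers 13 were called higher, and of 15 tested stellate cell and fibroblast markers 13 were called higher. Macrophage marker sums were 4910 to 18776 in Alb-R3 CCl4, against 3937 to 5547 in Alb-R3 oil, and 3425 to 5653 in Alb-Cre CCl4, against 5394 to 6656 in Alb-Cre oil. Endothelial marker sums were 6567 to 8683 in Alb-R3 CCl4, against 3116 to 3711 in Alb-R3 oil, and 6202 to 8752 in Alb-Cre CCl4, against 5499 to 7713 in Alb-Cre oil. Stellate marker sums were 2288 to 5173 in Alb-R3 CCl4, against 1147 to 1424 in Alb-R3 oil, and 2962 to 4338 in Alb-Cre CCl4, against 2270 to 3066 in Alb-Cre oil. The lowest sums of the endothelial and stellate lists were those of Alb-R3 oil. Defining markers of macrophages (Clec4f) and endothelium (Lyve1) were detected in all 12 libraries, at no more than 1186 and 198.8 normalized counts. Of the stellate list, Acta2 was at 0 in 4 of the 6 oil libraries and Dpt in 11 of 12 libraries. No other marker of the stellate list was at 0 in any library. In Alb-R3, 4 of 9 monocyte and neutrophil markers, 3 of 7 cholangiocyte markers and 1 of 10 lymphocyte markers were called higher, and 1 of 5 erythroid markers and 3 of 12 hepatocyte markers were called lower. Among all tested genes, 10.9% were called higher and 6.92% lower in Alb-R3, and 3.46% and 0.988% in Alb-Cre. The count for lymphocyte markers in Alb-R3 was thus near the share of all genes. Without Alb-R3 CCl4 replicate 1, 11 macrophage, 15 endothelial, 15 stellate, 2 monocyte and neutrophil, 3 cholangiocyte and 0 lymphocyte markers were called higher in Alb-R3, and 1 erythroid and 2 hepatocyte markers lower. In Alb-Cre, 5 stellate markers and 1 cholangiocyte marker were called higher, and 0 of the macrophage, endothelial, monocyte, lymphocyte, erythroid and hepatocyte markers were called. Without Alb-R3 CCl4 replicate 1, which changes the shared estimate of spread, 7 stellate, 3 hepatocyte and 1 macrophage marker were called in Alb-Cre, counted in either direction. That setting called 7.22% of all tested genes in Alb-Cre, beside 4.45% in the main fit. The hepatocyte markers had a median log2 fold change of -0.23 in Alb-Cre in the main fit, from -2.33 to 0.21. The part of other cells in the values of the inhibitor genes was not tested.

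The genes whose pattern over the 12 libraries lay nearest to that of each inhibitor were found by the root mean square (RMS) difference between log2 profiles centred on their means, a description with no test, over libraries that share treatment and depth. Nearest to Cdkn1a were Tubb6 (0.52), Acta2 (0.56) and Atp2b2 (0.58), where Cdkn1a itself varied by an RMS of 2.12 around its mean. Nearest to Cdkn3 were Knstrn (0.54), Diaph3 (0.58) and Ccnb2 (0.58), where Cdkn3 varied by 3.62. Nearest to Cdkn2c were Cenpq (0.26), Ckap5 (0.26) and Suv39h1 (0.27), and nearest to Cdkn2d were Vangl1 (0.20), Cenpc1 (0.22) and Chst14 (0.22). Nearest to Cdkn1b were Guf1, Pomt1 and Sntb1 (0.14, 0.14 and 0.15), where Cdkn1b itself varied by 0.31. Nearest to Cdkn1c were Plpp1, Col13a1 and Fmnl2 (0.29, 0.30 and 0.34), to Cdkn2b Inpp4b, Snrnp25 and Tubb4b (0.31, 0.37 and 0.40), and to Cdkn2a Icam2, Adam22 and Cidec (0.36, 0.39 and 0.41). Cdkn2a itself varied by 0.76, but its profile rests on 0 to 4 estimated reads per library, so its nearest genes say little. Among the 8 genes themselves, Cdkn2c and Cdkn2d were the nearest pair (0.41), and Cdkn1a and Cdkn3 lay 1.95 apart.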

How the data were processed

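The deposited table gives, per the file headers, a normalized count and an FPKM value for each gene and sample. The authors made these values before deposit; per the submitters' processing notes, the tools include kallisto 0.44.0 and edgeR, with GRCm38.p6 as the build, and no role is given for them. The deposited normalized count was handled as a signal, since the headers do not say how it was scaled: 70.0% to 74.2% of low values per sample were whole multiples of 1 read (tolerance 0.02), so reads were not recovered and no count model was run. Of 35709 identifiers, 35574 matched a symbol (GENCODE M21, GRCm38, 1-based positions).

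Values were analysed as log2(normalized count + 1), which understates the change of low genes, by limma 3.58.1 (R 4.3.3, trend option on) in 1 model of 4 groups and 12 samples, which leaves 8 residual degrees of freedom. A gene was tested if 3 or more samples had a value of 1 or more, which 20244 genes met, in 7 comparisons, with Benjamini-Hochberg adjustment within each and a threshold of 0.05; the method was tested on simulated data. Libraries held 28000000 to 39600000 estimated reads, but counting error depends on the reads of each gene. It matters for Cdkn2a, for Cdkn2b (2 to 30 estimated reads per library), for Cdkn1c (12 to 79) and for Cdkn3 after oil. The inhibitor genes, the gene lists and the tests were chosen with earlier results of these data known. The text names the inhibitor genes, members of the lists by the size of their change among those called (up to 2 in each direction per list), the 3 nearest genes of each inhibitor, and some further list members chosen after their values were seen. Promoters are from the RefSeq table (GRCm38.p6), in which 7 of the 8 genes have an entry; motifs were searched on both strands in the 250 bases before the start. Alternatives were quantile normalization, a total without mitochondrial genes, no trend, other filters and pseudocounts, FPKM, library weights, only the groups compared, the replicate block and leaving out each sample.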

Additional observations from a re-analysis of the deposited data

How the results depend on the processing

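Of 811 values of the inhibitor genes under 23 alternatives, 756 kept their direction and their side of the threshold, 7 lost a call, 28 gained one and 20, none of them a called value, changed sign; the cause was not tested. Members called for CCl4 against oil in Alb-R3 (4) became 2 under quantile normalization, where Cdkn2c (1.45, limma adjusted p = 0.0588) and Cdkn2d (1.06, limma adjusted p = 0.0509) missed (8.51% of all genes called higher, beside 10.9%), and 3 to 4 with 1 sample left out. In Alb-R3, Cdkn1c and Cdkn2b also passed with library weights (14.6% of all genes called higher) and with totals without mitochondrial genes (23%). In Alb-Cre the members called (2) became 4 with totals without mitochondrial genes (5.82% of all genes called higher, beside 3.46%), 5 with library weights (8.18%) and 2 to 4 with 1 sample left out (2.21% to 4.93%). For the mean of both genotypes (4) they became 7 with library weights (18.2%, beside 12.8%) and 4 to 6 with 1 sample left out. For Alb-R3 against Alb-Cre after oil, library weights called 1 gene (3.28% of all genes called, beside 0.207%), Cdkn1a at 1.20 (limma, adjusted p = 0.0331; 0.663 to 1 with 1 sample left out). In the 2-group fit, Cdkn2c in Alb-R3 had an adjusted p of 0.0993 (limma) and in Alb-Cre 0.0113 (limma).

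Changes of sign were these. Quantile normalization gave Cdkn1c -0.10 in Alb-Cre and Cdkn2c -0.058 for the difference in response, totals without mitochondrial genes gave Cdkn1a 0.10 for that difference, and library weights gave Cdkn2c 0.34 between genotypes after CCl4. With 1 sample left out, Cdkn1b ran from -0.12 to 0.48 in Alb-R3, Cdkn1c from -0.0086 to 0.61 in Alb-Cre, and between genotypes after CCl4 Cdkn2c from -0.55 to 0.55 and Cdkn3 from -0.61 to 1.22. The difference in response ran from -0.38 to 0.25 for Cdkn1a, from -0.33 to 0.78 for Cdkn2c and from -0.11 to 1.72 for Cdkn3.

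With the replicate block, 4 members were called in Alb-R3 and 2 in Alb-Cre, no call of a member changed, and 3091 and 713 of all genes were called. Deviations of same-numbered samples from their group means had correlations from -0.19 to 0.20 over 18 pairs, 3 of them over 0.1. With 3 samples a group, these values neither show nor exclude that the numbers pair the samples. Totals without mitochondrial genes moved the median of all genes by 0.37 in Alb-R3 and 0.20 in Alb-Cre, and gave 4644 genes higher and 500 lower in Alb-R3, beside 2198 and 1400, and 1176 higher and 116 lower in Alb-Cre, beside 700 and 200. The FPKM columns moved the medians by 0.17 and 0.15 and gave 3118 higher and 544 lower in Alb-R3 and 1096 higher and 88 lower in Alb-Cre. Counts of all genes called ran from 2039 to 5144 in Alb-R3 (3598), from 525 without Alb-Cre CCl4 replicate 2 to 2703 in Alb-Cre (900), from 2 to 103 between genotypes after CCl4 (35), from 12 to 663 after oil (42), from 0 to 46 for the difference in response (0), from 3472 to 6612 for the mean of both genotypes (4377) and from 53 to 234 for genotype over both treatments (87). After oil, Cdkn2a and Cdkn3 rested on 0 to 2 estimated reads per sample.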
